A study of Homo sapiens with 2 samples.

Results

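Tropomyosins and the proteins that work with them keep actin filaments stable, and the genes described here are the 4 tropomyosins TPM1, TPM2, TPM3 and TPM4, caldesmon (CALD1), the calponins CNN2 and CNN3, the tropomodulin TMOD3 and the transgelins TAGLN and TAGLN2. These 10 genes were chosen by family and by name from a table of 60711 genes, of which 27856 carry values and 13521 have a mean of at least 1 over both libraries. The choice was made with the ratios of the same libraries already known, so these ratios describe the genes and carry no test. All 10 members passed the filter of a mean of at least 1.

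The RNA came from A549, an epithelial line from a human lung adenocarcinoma that carries wild-type p53, 48 h after transfection with a control siRNA or with an siRNA against MILIP. MILIP, listed by the submitters as MAFG_AS1, is a long noncoding RNA that the study followed in the control of p53 by c-Myc. Both conditions shared the same line, culture medium and transfection reagent and differ in the siRNA. The study names si-MILIP.2 as the MILIP siRNA of its RNA-seq. Effects of this single sequence and of the loss of MILIP cannot be told apart here. Each condition is represented by 1 library, so no spread between cultures was measured and no p-value can be given. The limits below are exact 95% limits that cover counting error only, and PCR copies of a molecule were not told apart.

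Tropomyosins are coiled-coil dimers that lie end to end along the groove of an actin filament, where they govern which other proteins may bind it. Different tropomyosins mark different filaments in a non-muscle cell, such as stress fibers or the fine cortical network. Caldesmon, calponins and transgelins bind along the same filaments, and tropomodulins cap the slow-growing end of filaments coated with tropomyosin.

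The values are read counts that the authors scaled in each library, on a scale close to CPM, where 1 read is worth 0.0501 with control siRNA and 0.0503 with MILIP siRNA. The listed values stand for 20300800 and 19460956 reads. No value above 0 stands for fewer than 20 reads, so a gene listed at 0 may have had fewer reads than that. Genes were counted as higher or lower with MILIP siRNA from a 1.5-fold difference on log2(value + 1), which 11.1% of the 13521 genes reached upward and 13.8% downward, and 3.48% and 4.62% reached 2-fold. MILIP itself was listed at 29.5 with control siRNA (588 reads) and at 3.22 with MILIP siRNA (64 reads), a log2 ratio of −2.85 with the pseudocount (95% limits without it −3.59 to −2.82). The target was thus lower in the library labelled with its siRNA.

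TPM4 was the member that rose. TPM4, which codes for a tropomyosin of non-muscle stress fibers, was at 156 with control siRNA (3114 reads) and at 667 with MILIP siRNA (13257 reads). This is a log2 ratio of 2.09, or a 4.27-fold higher level without the pseudocount (95% limits 4.11 to 4.45). None of the other 9 members passed 1.5-fold in either direction, and their log2 ratios lay between −0.17 and 0.58. Thus 1 of 10 members was higher and 0 were lower, against the 11.1% and 13.8% of all genes given above. In bulk RNA, more cells that express a gene and more RNA per cell cannot be told apart.

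**Figure D1:**
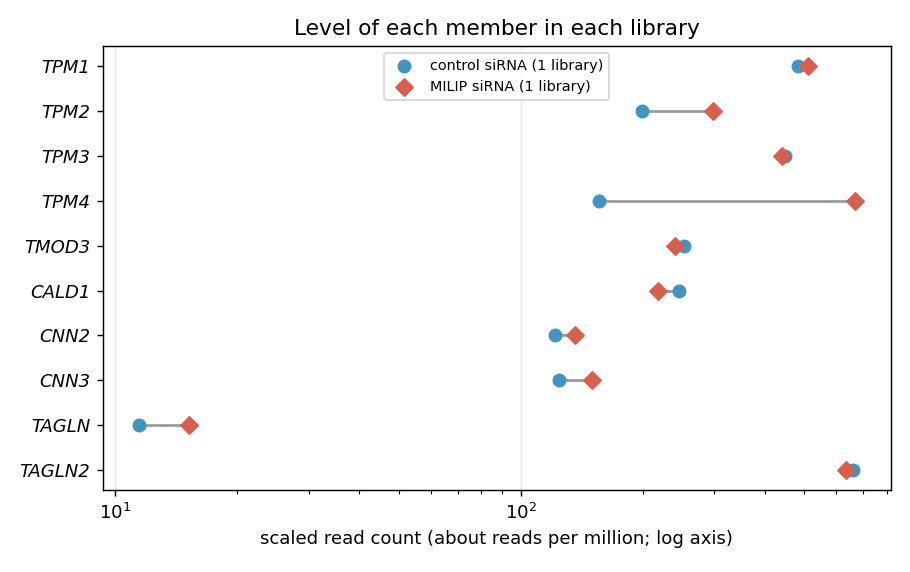
Scaled read count of each of the 10 members on a logarithmic axis, with 1 circle for the control siRNA library and 1 diamond for the MILIP siRNA library, joined by a line. TPM4 moves from 156 to 667, past TPM1 and TPM3, while the remaining pairs lie close together and TAGLN stays at the low end at 11.4 and 15.2.

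Among all 13521 genes TPM4 took place 24 from the top of the log2 ratios, above 99.8% of them. This place held among well covered genes. Where the mean was 100 or more, it took place 2 of 2181, and 178 of these genes (8.16%) were at least 1.5-fold higher. With control siRNA TPM4 was at 0.323 times the level of TPM1, and with MILIP siRNA it was at 1.31 times that level, both before any division by length.

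**Figure D2:**
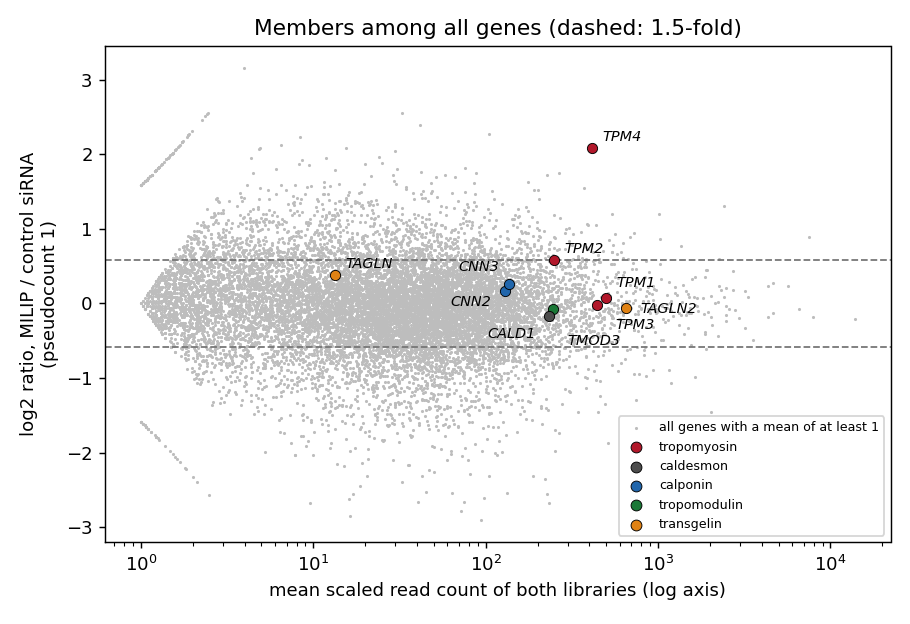
Log2 ratio of MILIP siRNA over control siRNA with a pseudocount of 1, against the mean scaled read count on a logarithmic axis, for the 13521 genes in grey and the 10 members in color. TPM4 stands far above the cloud at its level, TPM2 lies on the dashed 1.5-fold line, and the other members lie inside the band.

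The TPM4 gene spans chr19:16067021-16103005 on the + strand (GRCh38, GENCODE release 29), where 24 transcripts are annotated. Of the stretches of 50 bases in its transcripts, 7.14% also occur in transcripts of other genes, and 5.53% occur in the processed pseudogene AC098614.1. That pseudogene was at 2.40 and 2.87, with 48 and 57 reads, a small number beside the reads of TPM4. On the opposite strand AC008894.3 overlaps 829 bases of TPM4 exons (9.60%) and was at 1.10 with control siRNA and listed at 0 with MILIP siRNA. Whether reads were counted by strand is not stated, so reads of this pair cannot be told apart.

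The promoters of the members were read from RefSeq (GRCh38.p14), from 250 bases before to 50 after each start site. An entry was found for 9 of 10 members, with 19 start sites, and none for TAGLN. They were searched on both strands for the CArG box, the element bound by SRF in many muscle and cytoskeletal genes. It was found in TPM4 and CNN2, and 1.29% of 35116 promoters (1.60% of 27305 genes) hold it. The TPM4 box lies 173 bases before the most upstream of 3 RefSeq start sites, in the stretch chr19:16067325-16067414. The GENCODE span of TPM4 starts further upstream, at 16067021, so this box lies within that span. The CNN2 box lies 89 bases before the start site, in the stretch chr19:1026479-1026568, and both boxes are on the + strand. These stretches are shown because TPM4 is the member that rose and CNN2 is a member with the same element and a log2 ratio of 0.16. The CArG box is in capitals.

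TPM4: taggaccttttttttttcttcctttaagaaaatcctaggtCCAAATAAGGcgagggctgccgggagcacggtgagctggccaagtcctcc

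CNN2: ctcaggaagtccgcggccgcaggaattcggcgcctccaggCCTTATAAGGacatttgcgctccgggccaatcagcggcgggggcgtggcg

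The part of this element in the level of either gene was not tested. Which start site of TPM4 was used cannot be read from values per gene. The MCAT element, CATTCC, was found in windows of CNN3 and CALD1, and 14.0% of all promoters hold it. The p53 half-site, a motif of 10 bases, was found in windows of TPM3 and CALD1, and 6.63% of all promoters hold it. Full p53 response elements were not searched for. The E-box CACGTG was found in no window of a member, and 7.26% of all promoters hold it. None of these 3 motifs was found in the windows of TPM4.

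The other 3 tropomyosins moved less. TPM2, the beta-tropomyosin, was at 199 with control siRNA (3971 reads) and at 298 with MILIP siRNA (5932 reads). Its log2 ratio was 0.58, and its ratio without the pseudocount of 1.4996 (95% limits 1.44 to 1.56) left it just inside the threshold. Whether TPM2 is called depends on the scaling, because scaling by the median of ratios put it past 1.5-fold, as did equal sums of reads with no pseudocount. TPM4 and TPM2 were the members with the highest ratios, TPM4 well past the threshold and TPM2 at its edge.

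TPM1, the alpha-tropomyosin, was at 483 (9645 reads) and 510 (10146 reads), with a log2 ratio of 0.08 (95% limits 0.04 to 0.12). TPM3, the cytoskeletal tropomyosin that is found in most cells, was at 449 (8963 reads) and 441 (8767 reads), with a log2 ratio of −0.03 (95% limits −0.07 to 0.02). The sign of TPM3 is not fixed, since its ratio was above 0 under both other scalings and after removal of the GC trend. These genes held the most tropomyosin reads with control siRNA, and neither came near the threshold.

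**Figure D3:**
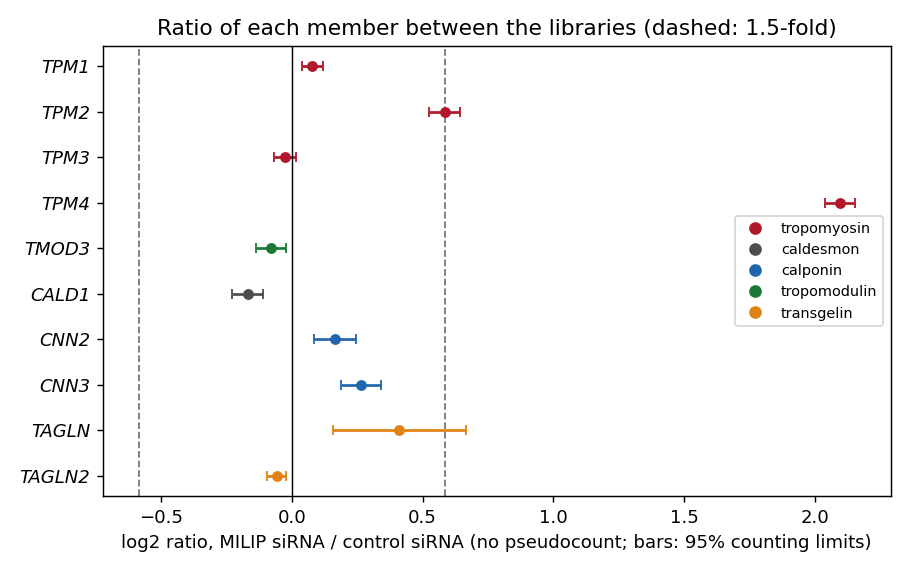
Log2 ratio of MILIP siRNA over control siRNA without a pseudocount for each member, with bars for the exact 95% limits of the read counts and dashed lines at 1.5-fold. The bars are narrow except for TAGLN, the member with fewest reads, and TPM3 is the member whose bar holds 0.

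Added together, the 4 tropomyosins went from 1287 to 1916, a 1.49-fold higher sum. Without TPM4 the other 3 were 1.10-fold higher. The sum of all 10 members rose by 606, of which 511 belonged to TPM4 and 95.6 to the other 9 members. Most of the added reads were therefore those of a single gene.

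The make-up of the tropomyosin reads differed accordingly. TPM4 held 12.1% of the 25693 tropomyosin reads with control siRNA (95% limits 11.7% to 12.5%) and 34.8% of the 38102 reads with MILIP siRNA (34.3% to 35.3%). TPM1 held 37.5% and then 26.6%, and TPM3 held 34.9% and then 23.0%. TPM2 kept close to its share, with 15.5% and 15.6%. A share is bound to the others, so the smaller shares of TPM1 and TPM3 stand beside levels that differed by a log2 ratio of 0.08 and −0.03. Per kilobase of exon the share of TPM4 was 10.6% and 29.6%, and with the length of the longest coding transcript it was 12.6% and 34.1%.

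**Figure D4:**
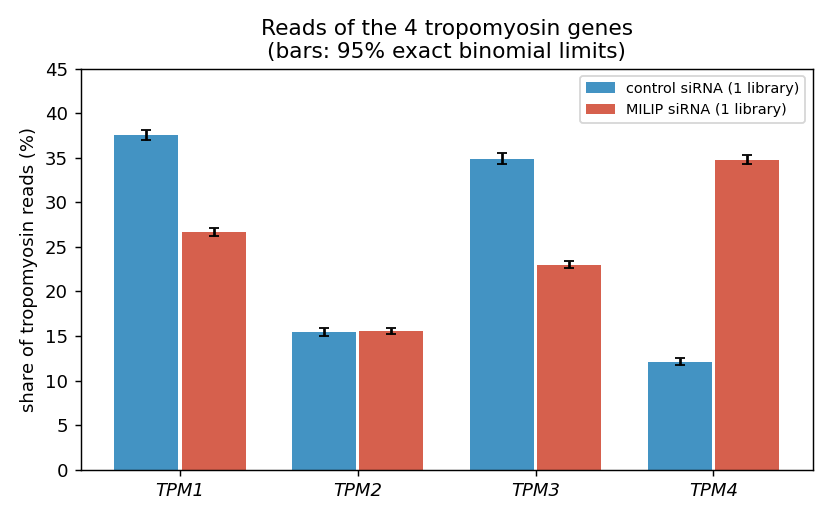
Share of the reads of the 4 tropomyosin genes that fell on each gene, in percent, for the control siRNA library and the MILIP siRNA library, with exact binomial 95% limits as bars. TPM4 goes from the smallest share, 12.1%, to the largest, 34.8%, and TPM2 has 15.5% and 15.6%.

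Levels of different genes were compared per kilobase of merged exons. With control siRNA TAGLN2 was far above the rest at 266 per kilobase, followed by TPM2 at 61.2, TPM3 at 53.5, CNN3 at 43.9, TPM1 at 37.5, CNN2 at 33.4, CALD1 at 25.0, TMOD3 at 23.8, TPM4 at 18.1 and TAGLN at 2.92. In this order the counting limits of CALD1 and TMOD3 overlapped, and those of the other neighbours were apart. With MILIP siRNA TPM4 was at 77.2 per kilobase and took place 3 instead of place 9, behind TAGLN2 at 256 and TPM2 at 91.8. It was followed by CNN3 at 52.7 and TPM3 at 52.5, whose limits overlapped, then by TPM1 at 39.6 and CNN2 at 37.4, by TMOD3 at 22.5 and CALD1 at 22.2, whose limits also overlapped, and by TAGLN at 3.88. By this length the place of TPM4 was thus the main difference between the 2 orders. The places depend on the length used. With the length of the longest coding transcript, TPM4 held 34.1% of the tropomyosin values per kilobase with MILIP siRNA, above TPM2 at 29.2%. With control siRNA these shares were 12.6% and 30.7%.

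Of the proteins that bind along the filament, CALD1 and the calponins stayed inside the threshold and lay on different sides of 0. CALD1, which links actin, tropomyosin and myosin and restrains the myosin motor, was at 246 (4904 reads) and 219 (4349 reads), with a log2 ratio of −0.17 (95% limits −0.23 to −0.11). This was the lowest ratio among the members, and it went to 0.00 when the trend with GC content was removed. CNN2, a calponin of non-muscle cells, was at 122 (2427 reads) and 136 (2710 reads), with a log2 ratio of 0.16 (95% limits 0.09 to 0.24). CNN3, the acidic calponin, was at 125 (2486 reads) and 150 (2977 reads), with a log2 ratio of 0.26 (95% limits 0.19 to 0.34). The 2 calponins had similar levels in each library before division by length.

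TMOD3, the tropomodulin found in most cell types, was at 253 (5047 reads) and 239 (4763 reads). Its log2 ratio was −0.08 (95% limits −0.14 to −0.02), and 0.16 after removal of the GC trend, so its sign depends on that step. The RNA of TMOD3 therefore had nearly the same level in both libraries while that of TPM4 was 4.27-fold higher.

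The transgelins lay at opposite ends of the range of levels. TAGLN2, the transgelin of non-muscle cells, was at 662 (13214 reads) and 636 (12646 reads), with a log2 ratio of −0.06 (95% limits −0.09 to −0.02). TAGLN, also called SM22 and best known from smooth muscle, was at 11.4 (228 reads) and 15.2 (302 reads). Its log2 ratio was 0.38, and its ratio without the pseudocount was 1.33 (95% limits 1.12 to 1.59), so that a 1.5-fold difference lies within its counting error. The exons of TAGLN overlap those of PCSK7 on the opposite strand over 446 bases (11.4%), and PCSK7 was at 18.2 and 15.5, a level above that of TAGLN.

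Over the 10 members 6 log2 ratios were above 0 and 4 below. The counting limits lay above 0 for 6 members and below 0 for 3, and held 0 for TPM3. The median of the members was 0.12, against −0.03 for all genes. Of the members, 8 lay within 0.4 of 0 on the log2 scale, as did 59.0% of all genes and 62.3% of those whose mean was 100 or more. TAGLN lay just inside this bound at 0.38 and outside it without the pseudocount, at 0.41. Apart from TPM4, TPM2 and TAGLN, the members were among the many genes whose levels were close in both libraries.

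The members lie on 6 chromosomes, with TPM3, CNN3 and TAGLN2 on chromosome 1 and both TPM1 and TMOD3 on chromosome 15. TPM4 and CNN2 share chromosome 19, where CNN2 spans chr19:1026581-1039068. TPM2 spans chr9:35681992-35690121 on the − strand. The 4 nearest genes with a mean of at least 1 on each side of TPM4 and of TPM2 were read for comparison.

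Around TPM4, 1 of the 8 neighbours was higher and 1 was lower, and none came near its ratio. RAB8A, the next gene downstream, was at 15.7 and 15.9. FAM32A was at 34.3 and 57.7, a log2 ratio of 0.73, and the unnamed gene ENSG00000267056 was at 7.61 and 3.02, a log2 ratio of −1.10. Around TPM2, 2 of 8 neighbours were higher and 1 was lower. CREB3 was at 47.4 and 97.0 and TESK1 at 11.6 and 20.6, while GBA2 was at 71.7 and 41.2. TLN1, the closest of them on one side, was at 332 and 351.

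Where the mean was 100 or more, the genes whose log2 ratio was nearest to that of TPM4 were CCDC80, COL5A1, INSIG1, SUSD2 and GANAB. CCDC80 went from 35.3 to 174, a log2 ratio of 2.27. COL5A1, a fibrillar collagen chain, went from 122 to 412, a log2 ratio of 1.74. INSIG1, a brake on cholesterol synthesis, went from 105 to 347, SUSD2 from 85.1 to 266 and GANAB, a glucosidase of the endoplasmic reticulum, from 189 to 555. The likeness rests on 1 ratio between 2 libraries and says nothing of how they are controlled.

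The members were set beside 8 lists, of other actin cytoskeleton genes and of SRF, its MRTF cofactors and their known targets. Together these hold 105 genes that are not members, of which 91 passed the filter, with 7 higher (7.69%), 12 lower (13.2%) and a median log2 ratio of 0.00. For all genes these shares were 11.1% and 13.8%. This count of higher genes was 4 after removal of the GC trend and 11 with no pseudocount and equal sums of reads. None of the 91 reached the ratio of TPM4. MYOCD, a cofactor of SRF that is not in these lists, came close to it at 2.08, from few reads. The highest of them was FOS at 0.89, from the list of SRF targets, followed by the nucleator DAAM1 at 0.80.

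**Figure D5:**
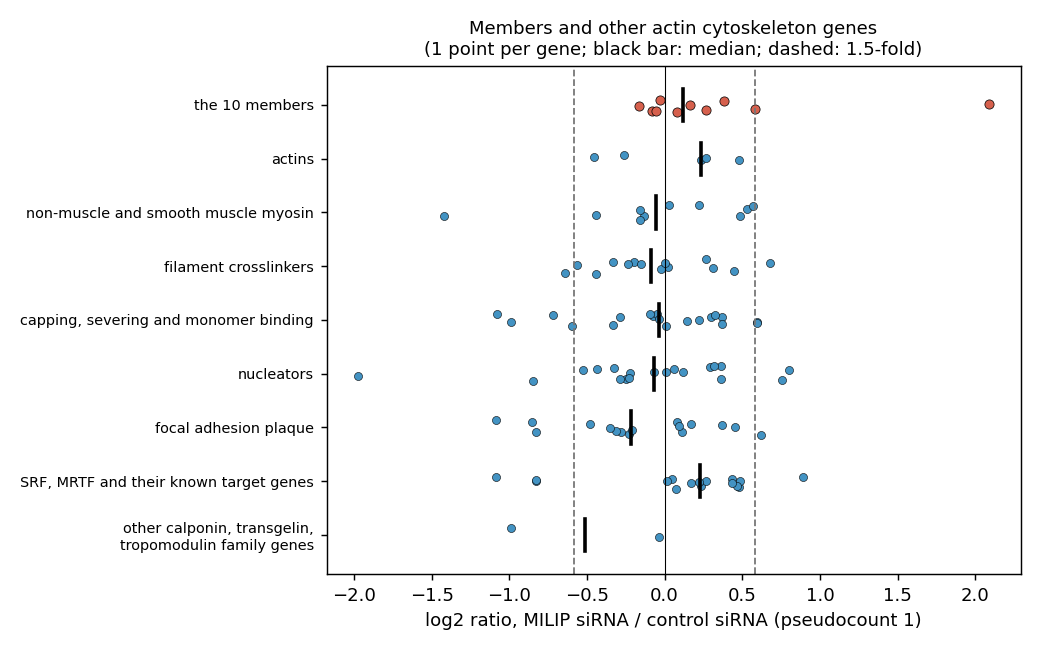
Log2 ratio of MILIP siRNA over control siRNA with a pseudocount of 1, with 1 point per gene. Points are the 10 members and the genes of 8 lists, from which members are left out. The lists hold other actin cytoskeleton genes, and SRF, its MRTF cofactors and their known targets. Black bars are medians and dashed lines mark 1.5-fold. TPM4 is the point at 2.09, and WASF2, at −1.97, is the lowest of all.

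Of 5 actins and actin-related genes that passed the filter, 0 were higher or lower, with a median of 0.24, but with a pseudocount of 0.1 the count of higher genes was 1, ACTA2. The cytoplasmic actins ACTB and ACTG1 were at 4005 and 4718 and at 4183 and 5044. ACTG1, at 0.27, and ACTA2, at 0.48 from 2.75 and 4.22, were the highest, ACTR2, at −0.45, and ACTR3, at −0.26, were the lowest, and ACTA1, ACTC1 and ACTG2 were listed at 0 in both libraries. Of 10 myosin genes 1 was lower, the light chain kinase MYLK, which fell from 66.5 to 24.2. PPP1R12A was at −0.44, and the highest were PPP1CB at 0.57 and MYL6 at 0.53, with MYH11 listed at 0. No myosin gene was higher with the pseudocount of 1, while 1 was with a pseudocount of 0.1 and 3 were with none and equal sums of reads.

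Among the other relatives of the members, TMOD2, a tropomodulin best known from neurons, fell from 7.86 to 3.47, while TMOD1 was at 4.31 and 4.17. CNN1, LMOD1 and LMOD3 were listed at 0 in both libraries, and TMOD4, LMOD2 and TAGLN3 have no value. TMOD3 was therefore the tropomodulin with by far the most reads in both libraries.

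Of 14 filament crosslinkers 1 was higher and 1 was lower, with a median of −0.09. FLNC went from 3.71 to 6.54 and PLS1 from 67.8 to 43.1, with PDLIM1 at 0.44 and ACTN1 at −0.57. LCP1 had 20 reads with control siRNA and was listed at 0 with MILIP siRNA. Of 19 genes that cap, sever or bind monomers 2 were higher and 4 lower, with a median of −0.04. The monomer binder TMSB4X rose from 1792 to 2713 and WDR1 from 303 to 459, both at 0.60, and PFN2 fell from 246 to 116 and TMOD2 as above, with CAPZA2 and CAP1 the other 2 that were lower. SCIN and LMOD1 were listed at 0 in both libraries, and VIL1 had 22 reads with MILIP siRNA and was listed at 0 with control siRNA.

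Of 19 nucleators 2 were higher and 2 were lower, with a median of −0.07. DAAM1, a formin, rose from 16.5 to 29.6 and CTTN from 283 to 480, while WASF2, a subunit of the WAVE complex, fell from 152 to 38.1 and WASF1 from 19.8 to 10.6. Of 16 focal adhesion genes 1 was higher and 3 were lower, with a median of −0.22. TNS1 rose from 17.2 to 27.1, with VASP next at 0.45, and FHL1 fell from 14.3 to 6.23, TES from 56.4 to 30.8 and VCL, the vinculin gene, from 556 to 313. ILK was listed at 0 in both libraries, and whether its RNA was absent or its reads were not counted was not tested. The lists thus held genes on both sides of the threshold.

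Of 19 genes of SRF, its MRTF cofactors and their known targets, 1 was higher and 3 were lower, with a median of 0.22. With members included, their log2 ratios were above 0 for 15 and below 0 for 4, where the median of all genes was −0.03. The count of higher genes depends on the pseudocount, since it was 3 with a pseudocount of 0.1 and 3 with none and equal sums of reads, beside the same count of 3 lower. This list includes the members TAGLN, CALD1 and TPM1, and 16 genes are left without them. It also shares genes with the other lists, among them ACTB, VCL and FHL1. FOS rose from 48.0 to 89.9, with MYL9 next at 0.49, and FHL1, VCL and MRTFB, the last from 50.1 to 27.8, were lower. SRF was at 53.9 and 55.9, and CNN1 was listed at 0. MYOCD, another cofactor of SRF, is not in this list and is given with the markers below.

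Markers of cell types were read in both libraries. All 7 epithelial markers passed the filter, with a summed level of 4794 and 4527. Of them 3 were higher and 1 was lower, with a median log2 ratio of 0.26, while 11.1% and 13.8% of all genes were higher and lower. KRT8 was at 2543 and 2875 and KRT18 at 641 and 655, while KRT7 fell from 1508 to 810 and KRT19 rose from 62.1 to 122. EPCAM and CDH1, epithelial adhesion genes at low levels here, rose from 2.65 to 5.93 and from 30.5 to 50.8. Of 14 smooth muscle and fibroblast markers 5 passed, with a summed level of 46.7 and 67.1, and 8 were listed at 0 in both libraries, among them the defining markers MYH11, DES and CNN1. Of those that passed, 2 were higher and 0 lower. The higher ones were MYOCD, a cofactor of SRF, at 1.25 (25 reads) and 8.55 (170 reads), and SYNPO2 at 7.61 and 13.4. The log2 ratio of MYOCD was 2.08, and without the pseudocount its level was 6.83-fold higher. Of 10 striated muscle markers 2 passed, 0 of them higher or lower, with a summed level of 60.3 and 53.3, and 6 were listed at 0. TNNT1 held most of this sum, at 56.0 and 50.8, and TTN was at 4.26 and 2.51. The part of these markers in the rise of TPM4 was not tested.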

How the data were processed

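RNA-seq values of A549 cells came from 2 libraries, 1 per siRNA. The authors deposited 1 signal value per gene and library, in columns named as read counts. In each library the nonzero values step by a constant amount (100% within 0.01 reads), taken here as 1 read, and start at 20 reads. TopHat2 2.0.12, HTSeq 0.6.1 and hg38 are named in the submitters' processing notes. Their order, the annotation, the strand setting and the scaling are not given in the sources used here. The deposited log2 fold changes, p-values, q-values and calls were not used.

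Log2 ratios were taken on log2(value + 1) for the 13521 genes whose mean reached 1, and 13365 of them matched a symbol. Limits are Clopper-Pearson limits of the reads at 95%. Exons, lengths and shared stretches came from GENCODE release 29, and promoters from RefSeq. The named genes were every member, MILIP, from each actin cytoskeleton list the top 2, the bottom 2 and any listed at 0, and the 5 genes most like TPM4. Other genes in the text, the lower genes beyond these, the neighbours, the cell type markers, ACTB and SRF, were chosen after their values were seen. A further list is not reported here. The members and lists were chosen with earlier results of these data known. Alternatives were a pseudocount of 0.1, other scalings, a mean of at least 5, no filter and a 2-fold threshold. Removal of the trend with GC content in 50 bins and other lengths were added after the values were seen. Scripts were first tested on simulated counts and ran in Python 3.11.15 (pandas 2.3.3, scipy 1.17.1, numpy 2.4.6, matplotlib 3.10.9).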

Additional observations from a re-analysis of the deposited data

How the results depend on the processing

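No paired analysis was possible because there is 1 control library and 1 MILIP siRNA library, so neither could be left out either. The log2 ratio of TPM4 lay between 2.09 and 2.15 under 6 alternatives, and it was 2.15 with no pseudocount and equal sums of reads. Members at least 1.5-fold higher numbered 2 with scaling by the median of ratios and 2 with no pseudocount and equal sums of reads, against 1. TPM2 lies at the threshold, and these scalings shift every log2 ratio by 0.03 and 0.06. Filters on low values leave a member's ratio as it is. Under the other 4 settings 30 of 40 ratios of members moved by less than their counting error and 10 moved further. Of the 40, 5 changed sign (TPM3 in 3 settings, and CALD1 and TMOD3 after removal of the GC trend), and none of these members was called. With a threshold of 2-fold, 471 genes were higher and 625 lower, and of the other genes in the 8 lists 0 were higher and 4 lower. In place of 7, 11 of these were higher with no pseudocount and equal sums of reads, which change together, 9 with a pseudocount of 0.1 and 8 with the median of ratios. After removal of the GC trend 4 were higher, and TPM4 was at 2.12. The depth bounds counting error, which is narrow for 9 of the 10 members and widest for TAGLN. Variation between cultures or library preparations was not measured, and the make-up of TPM4 transcripts cannot be read from values per gene.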
